A study of Mus musculus with 13 samples.

Results

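The immunoglobulin loci were read from all probe sets of 2 Affymetrix mouse array types whose every annotated symbol begins with the name of a heavy chain, kappa or lambda segment. On the Mouse Genome 430 2.0 array, 55 of 45101 probe sets met this rule, and on the Gene 1.0 ST array 30 of 35556. Of these, 4 and 1 are annotated to Ighmbp2, which carries the prefix but encodes a helicase, on chromosome 19 in the RefSeq table of GRCm38.p6, and lies in no immunoglobulin locus. This left 51 and 29 immunoglobulin probe sets, described here singly because segments are alike in sequence and share probes: 23 heavy, 24 kappa and 4 lambda probe sets on the first type, and 10, 17 and 2 on the second. Several symbols were annotated to 13 of the 51 and 14 of the 29, and 43 and 21 shared a symbol with another probe set, so that they are not independent measurements. In that table the heavy chain segments lie on chromosome 12, the kappa segments on chromosome 6 and the lambda segments on chromosome 16.

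An antibody consists of heavy and light chains, each with a variable part, joined in the genome from V, D and J segments (V and J in light chains), and a constant part. A pre-B cell has joined its heavy chain segments and makes the mu heavy chain, encoded with Ighm, which it pairs with a surrogate light chain. The kappa locus is joined next, and the lambda locus usually after it. Segments that are not yet joined can also be transcribed, as germline transcripts.

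All cells were B3, a mouse pre-B cell line, transduced with a mouse stem cell virus that also encodes GFP. In the first design, on 430 2.0 arrays, 2 samples of cells with HA-tagged wild-type Ikaros, called Ikaros cells here, were set against 2 of cells with 159A, an HA-tagged Ikaros mutant deficient in DNA binding, all labelled 48 h. The second design, on Gene 1.0 ST arrays, had HA-tagged Ikaros joined to ERt2, a hormone-binding domain taken from the estrogen receptor. These Ikaros-ERt2 cells were exposed to 4-hydroxytamoxifen, the ligand of ERt2, for 2 h (n = 3) or for 6 h (n = 3), and vector-ERt2 cells, which carry ERt2 without Ikaros, for 6 h (n = 3). Ikaros is the zinc-finger DNA-binding protein encoded by Ikzf1. The design asked which genes respond to it. Vector-ERt2 cells exposed for 2 h and unexposed Ikaros-ERt2 cells are not analysed here, so a difference between the lines that preceded exposure cannot be told apart from a response.

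Values are on a log2 scale, and the 2 types were deposited as separate tables, so log2 levels were never compared across them. Only for Ighm are ranks within an array given for both types. On 430 2.0 arrays many probe sets sit at a common lowest value of 2.19. Within groups, these arrays correlated with a Pearson r of 0.987 and 0.995 over probe sets, against 0.967 to 0.973 between groups. A probe set is called here where limma gave an adjusted p under 0.05 over all probe sets tested. The lowest 40% of each table by mean were not tested. Ikzf1 in Ikaros-ERt2 cells read 13.40, 13.22 and 13.22 after 2 h and 13.31, 13.22 and 13.25 after 6 h, against 9.16, 9.25 and 9.39 in vector-ERt2 cells. The first vector-ERt2 sample, at 9.16, is a vector sample by its title but has inducible Ikaros in another label field. On 430 2.0 arrays, 1 Ikzf1 probe set averaged 12.04 in Ikaros cells and 11.71 in 159A cells, and the other read 4.11 and 4.77 in Ikaros cells and 12.83 and 12.73 in 159A cells. Of the markers of the labelled cell type, Cd79a, Cd79b, Pax5 and Ebf1 had group means of 8.63 to 14.74 on this type, each on its probe set with the highest mean. Dimmer probe sets exist, of which 1 for Pax5 was near the floor in both groups and 1 for Ebf1 averaged 3.89 in Ikaros cells and 5.97 in 159A cells. Other B-lineage markers, read in the same way, differed more: Igll1 averaged 8.97 in Ikaros cells and 14.89 in 159A cells, Vpreb1 10.82 and 14.74, and Blnk 10.69 and 8.62. The mean over 7 of the 8 listed B-lineage genes was 11.36 to 11.72 in Ikaros arrays and 11.78 to 12.06 in 159A arrays.

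At 48 h, 1 probe set of each of the 3 immunoglobulin chains was called higher in Ikaros cells than in 159A cells. Of the 29 members that passed the filter, 0 were called lower, beside 873 of all 27061 probe sets tested. The rest of the 51 had no test. The 3 called higher were 1 of several Ighm probe sets, which rose 1.84-fold, 1 of 3 probe sets that hold the kappa constant gene Igkc, which rose at least 3.18-fold, and 1 of 3 for the lambda segment Iglv1 alone, which rose at least 112-fold. They were 3 of the 29 that passed the filter, 1 of 12 heavy, 1 of 13 kappa and 1 of 4 lambda, against 5.48% of all 27061 probe sets tested that were called either way and 2.25% that were called higher. With any 1 of the 4 arrays left out, 1 group has a single array and limma called 0 of all 27061 probe sets (4418 to 7146 at an unadjusted p under 0.05), so that no call could be checked in this way. The log2 changes of the 3 then lay between 0.82 and 0.93 for Ighm, 2.62 and 2.67 for the Igkc probe set and 7.41 and 7.53 for Iglv1. Probe sets that passed only because Ikaros cells were bright had to differ, so these counts describe the probe sets and carry no weight beyond that.

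Most of the immunoglobulin probe sets lay near the lowest values in both groups. A value within 1 log2 unit of the lowest one, that is up to 3.19, was taken as near the floor, where sizes are not exact. All 4 arrays lay there for 37 of the 51 (72.5%), 18 of 23 heavy, 18 of 24 kappa and 1 of 4 lambda, against 53.1% of all probe sets. Of the other 14, 5 had an array over the limit in both groups, 9 in Ikaros cells only and 0 in 159A cells only. Over all probe sets, 3.61% of the 21158 probe sets with an array over the limit had it in Ikaros cells only and 2.44% in 159A cells only. Both Ikaros arrays were above both 159A arrays in 12 of the 14, and below them in 0, while 28.3% of the 21158 were higher in this way and 29.4% lower. For the 9 that met the limit through Ikaros arrays alone, the limit itself largely set the direction, so this count is a description.

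**Figure D1:**
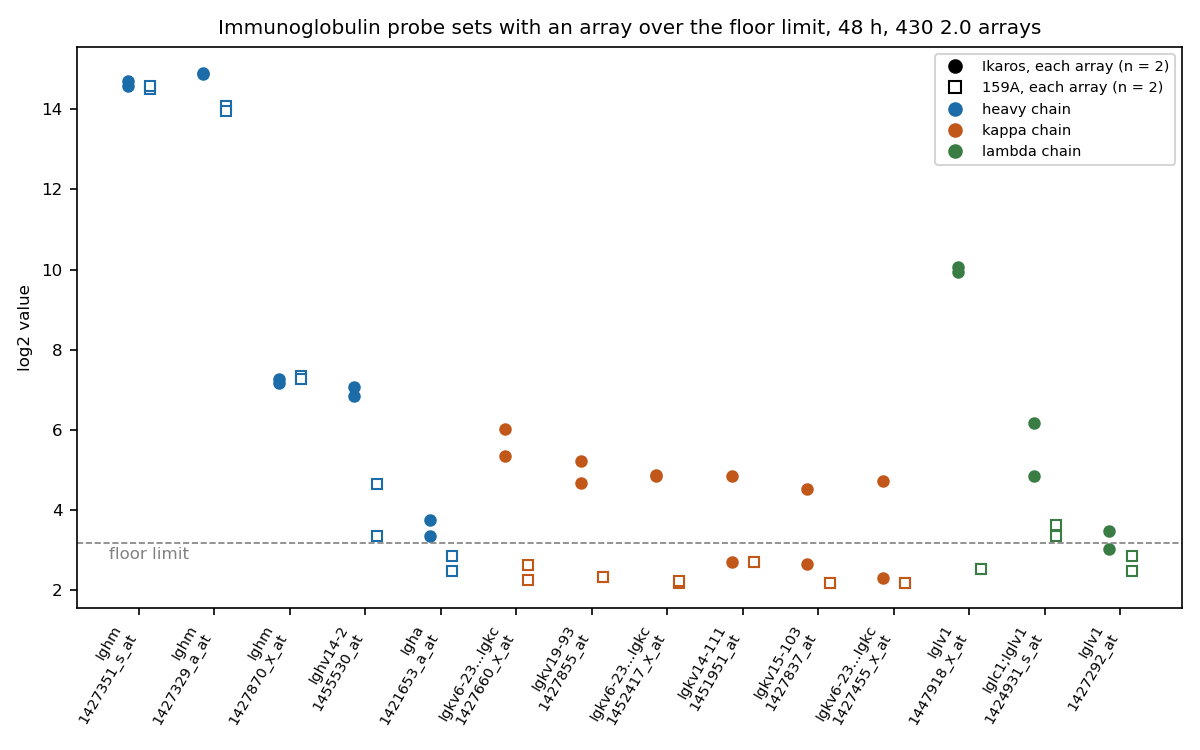
Log2 values of the 14 immunoglobulin probe sets with an array over the floor limit (dashed line, 3.19) at 48 h, with filled circles for each Ikaros array and open squares for each 159A array (n = 2 each; symbols overlap where values coincide), coloured by chain. The 2 brightest Ighm probe sets stand at 13.96 or more in every array, and all 6 kappa probe sets have both 159A arrays under the limit.

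Of the mu heavy chain gene Ighm, 2 probe sets stood near the top of every 430 2.0 array. Of 11 probe sets annotated to Ighm alone, 3 were over the floor limit. The probe set 1427329_a_at read 14.87 and 14.92 in Ikaros cells and 14.07 and 13.96 in 159A cells, above 99.3% of probe sets of an array on average. Its arrays did not overlap, and it rose by a log2 change of 0.88 ± 0.06 (limma, SE; adjusted p = 0.0395). The call was lost without the filter on low values (adjusted p = 0.109) and with the lowest 60% left out (adjusted p = 0.0519). The suffix a marks probes that match alternative transcripts of 1 gene.

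The other bright Ighm probe set did not show a change of that size. The probe set 1427351_s_at, whose suffix s marks probes shared by several transcripts, read 14.58 and 14.70 in Ikaros cells and 14.51 and 14.57 in 159A cells. Its groups did not overlap, but the log2 difference was 0.10 with a 95% interval of -0.13 to 0.33 (limma adjusted p = 0.531). The third, 1427870_x_at, whose suffix x marks probes that can bind other sequences, read 7.26 and 7.17 in Ikaros cells and 7.35 and 7.26 in 159A cells, with an interval of -0.30 to 0.12. Within an array, 1427329_a_at minus 1427351_s_at came to 0.30 and 0.22 in Ikaros cells and to -0.44 and -0.61 in 159A cells, so these 2 probe sets of 1 gene did not move equally. The probe sequences are not used here, and which Ighm transcripts each one reads was not tested.

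Other heavy chain members were dimmer than the 2 bright Ighm probe sets, and most were near the floor. The only probe set annotated to a heavy V segment alone, 1455530_at for Ighv14-2, read 7.08 and 6.85 in Ikaros cells and 4.66 and 3.36 in 159A cells. The groups stood clear of each other, but the 159A arrays spread widely, and the log2 difference of 2.95 ± 0.58 was not called (limma adjusted p = 0.127). Igha, the constant gene of IgA, had 3 probe sets, of which 1421653_a_at read 3.76 and 3.35 in Ikaros cells and 2.85 and 2.48 in 159A cells (adjusted p = 0.196). The other 2, and all 4 annotated to Ighg3 alone, the constant gene of the IgG3 subclass, were near the floor in all arrays. So were the 8 other Ighm probe sets and the 4 that pair Ighm or Ighg3 with a V segment.

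Kappa probe sets were at or near the floor in 159A cells without exception. Of the 24, 6 had an Ikaros array over the limit. The 3 probe sets that hold Igkc share the same 5 symbols, Igkv6-23, Igkv4-53, Igkv8-30, Igkj1 and Igkc. Of these, 1452417_x_at read 4.87 and 4.85 in Ikaros cells and 2.19 and 2.24 in 159A cells (log2 change 2.64 ± 0.03, limma adjusted p = 0.0202). Its standard error is small because 159A cells lie at the floor and the Ikaros arrays nearly coincide.

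The other 2 probe sets with the same symbols showed how far such dim values vary. The probe set 1427660_x_at read 6.02 and 5.34 in Ikaros cells and 2.63 and 2.26 in 159A cells, at least a 5.62-fold difference that was not called (log2 difference 3.24 ± 0.34, limma adjusted p = 0.0596). For 1427455_x_at the Ikaros arrays were 4.73 and 2.31, and both 159A arrays were at 2.19. So 1 Ikaros array of this probe set was near the floor and the other was not.

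Single V segments of the kappa locus gave signal in Ikaros arrays too. Igkv19-93, read by 1427855_at, stood at 4.69 and 5.23 in Ikaros cells and at 2.33 in both 159A arrays (at least 3.4-fold, log2 difference 2.63 ± 0.24, limma adjusted p = 0.0519). A second Igkv19-93 probe set was at the floor in all 4 arrays. Igkv14-111 and Igkv15-103 were each over the limit in the second Ikaros array alone. Igkv14-111 read 2.70 and 4.86 in Ikaros cells and 2.70 in both 159A arrays, and Igkv15-103 read 2.65 and 4.53 in Ikaros cells and 2.19 in both 159A arrays. The 18 other kappa probe sets were near the floor in all arrays.

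The lambda locus held the largest difference. The Iglv1 probe set 1447918_x_at read 10.06 and 9.94 in Ikaros cells and 2.53 in both 159A arrays, a rise of at least 112-fold (log2 change 7.47 ± 0.06, limma adjusted p = 0.0202). The other probe sets that carry Iglv1 were far from this. One, 1427292_at, read 3.02 and 3.47 in Ikaros cells and 2.47 and 2.86 in 159A cells, and another, 1430523_s_at, lay between 2.21 and 2.40 in all arrays. The fourth, 1424931_s_at, annotated to Iglv1 and the lambda constant gene Iglc1, read 6.18 and 4.86 in Ikaros cells and 3.35 and 3.63 in 159A cells (log2 difference 2.03 ± 0.60, adjusted p = 0.216). All 4 had a higher mean in Ikaros cells, but 1 was called, and it is a probe set whose suffix x marks possible binding of other sequences.

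**Figure D2:**
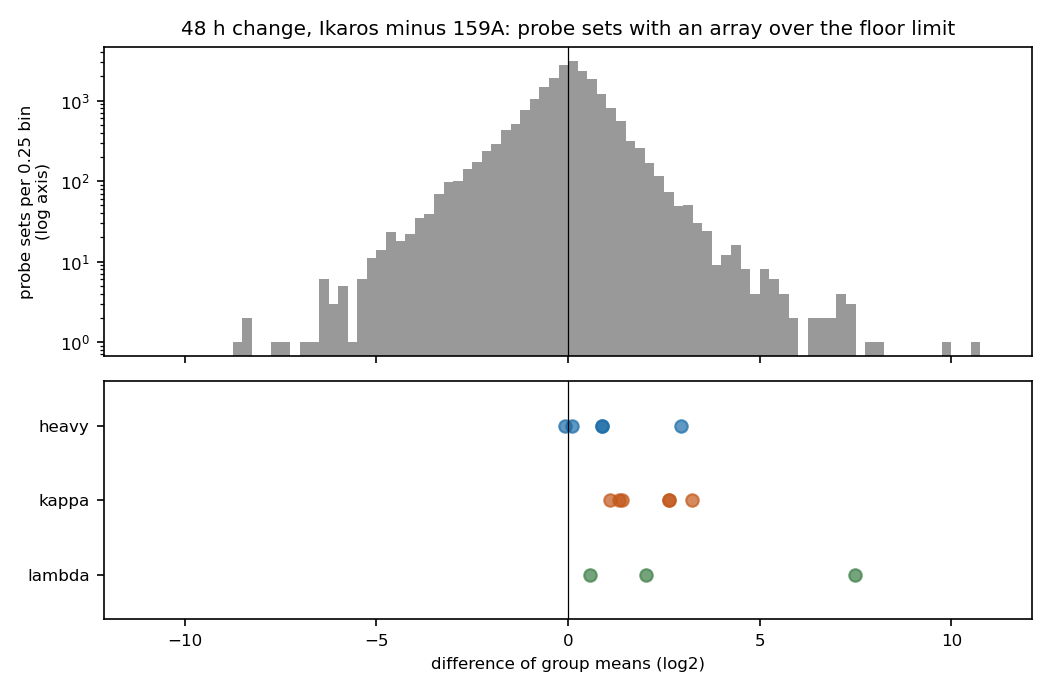
Difference of group means at 48 h (Ikaros minus 159A, log2) for the 21158 probe sets with an array over the floor limit (upper panel, number of probe sets per bin on a log axis) and for the immunoglobulin probe sets among them by chain (lower panel, 5 heavy, 6 kappa and 3 lambda points). The immunoglobulin points run from -0.09 for 1 Ighm probe set to 7.47 for 1 Iglv1 probe set, while all probe sets together extend on both sides of 0.

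Over all members, floor included, the median difference at 48 h was 0 for heavy, 0.01 for kappa and 1.31 for lambda probe sets, beside 0 for the whole table. The heavy chain differences ran from -0.09 to 2.95, those of kappa from 0 to 3.24 and those of lambda from 0.09 to 7.47. The 3 chains were not tested against each other.

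Genes that work with immunoglobulins were read from a list of receptor partners, recombination enzymes and regulators. At 48 h, 45 probe sets of 23 of its genes were tested, of which 7 were called higher and 3 lower. Of all 27061 probe sets tested, 2.25% were called higher and 5.48% either way. The J chain gene Jchain, whose product links IgM and IgA units in antibody-secreting cells, read 8.28 and 8.12 in Ikaros cells and 2.41 and 2.82 in 159A cells, at least 32.1-fold higher (limma adjusted p = 0.0263). The recombinase gene Rag1 rose to 13.44 and 13.52 in Ikaros cells, against 9.99 and 10.23 in 159A cells. Its partner Rag2 read 9.20 and 9.59 in Ikaros cells and 6.71 and 6.09 in 159A cells and was not called (adjusted p = 0.061). Rises were also called for 1 probe set of Pax5, 1 of Spib, 1 of the kinase gene Syk and 2 of Ebf1, a further Ebf1 probe set being called lower. Pax5, Spib and Ebf1 encode B-lineage transcription factors.

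The partner that pairs with the heavy chain before a light chain exists went the other way. Igll1, a surrogate light chain gene, read 8.94 and 8.99 in Ikaros cells and 14.67 and 15.11 in 159A cells on its bright probe set (log2 change -5.92 ± 0.20, limma adjusted p = 0.0263). Vpreb1, another such gene, read 11.25 and 10.40 in Ikaros cells and 14.76 and 14.72 in 159A cells and was not called (adjusted p = 0.0542). For Vpreb3 the log2 difference was -0.08, also not called. Dntt, which adds bases at joins between segments, was called lower on 1 of 3 probe sets, by at least 3.74-fold. Cd79b, which carries the receptor's signal, read 14.86 and 14.61 in Ikaros cells and 12.88 and 12.36 in 159A cells and was not called (adjusted p = 0.0692). For its partner Cd79a the log2 difference was 0.53 (adjusted p = 0.633).

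Markers of other cell types were read beside these values. Of the plasma cell list, Jchain moved as above, while Prdm1, Sdc1 and Tnfrsf17 were near the floor in every array of both groups and Xbp1 averaged 11.36 in Ikaros cells and 11.87 in 159A cells. The mean over the 5 plasma cell genes read was 5.21 to 5.25 in Ikaros arrays and 4.16 to 4.28 in 159A arrays. Of these 5, only Jchain had a higher mean in Ikaros cells. Over the 5 mature B cell genes it was 4.27 to 4.41 in Ikaros arrays and 3.64 to 3.89 in 159A arrays, with Ms4a1, Fcer2a and Cxcr5 near the floor in both groups. Cd22 averaged 7.17 in Ikaros cells and 5.24 in 159A cells, and Cr2 averaged 7.35 and 6.94. The part of other cell types in the immunoglobulin values was not tested, and in such bulk samples more cells with a transcript and more transcript per cell cannot be told apart. Of the T cell genes, 4 of 5 were near the floor in both groups. Of the 5 macrophage genes, Csf1r, Cd14, Adgre1 and Itgam were near the floor in both groups, while Lyz2 lay between 2.63 and 2.67 in Ikaros arrays and between 4.03 and 4.75 in 159A arrays. The mean over this list was 2.38 in both Ikaros arrays and 2.65 to 2.79 in 159A arrays.

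On Gene 1.0 ST arrays the immunoglobulin probe sets were dim in all 3 groups, and none was called at 2 h, at 6 h or between these times. Heavy chain values lay between 3.43 and 6.09, kappa values between 3.18 and 6.46 and lambda values between 3.57 and 3.92, beside a median of 5.37 over the whole table. The mean rank in the array was below the middle for 24 of the 29. The filter on low values left 4 heavy, 2 kappa and 0 lambda probe sets to test, and 23 members had no test. The Ighm probe set 10402991 averaged 5.49 at 2 h and 5.46 at 6 h in the Ikaros-ERt2 line, and 5.36 in the vector line. This probe set ranked above 51.2% of an array's probe sets on average, and the Ighm probe sets 10402864 and 10403069 above 41.6% and 12.3%. On the other array type, 1427329_a_at for Ighm ranked above 99.3%, though most Ighm probe sets there were near the floor. Ranks on the 2 types are not like measures, since 53.1% of all 430 2.0 probe sets lay near the floor in every array. Whether the Ighm probe sets here read the abundant mu transcript was not tested. Their lack of a call therefore cannot show that Ighm did not respond.

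**Figure D3:**
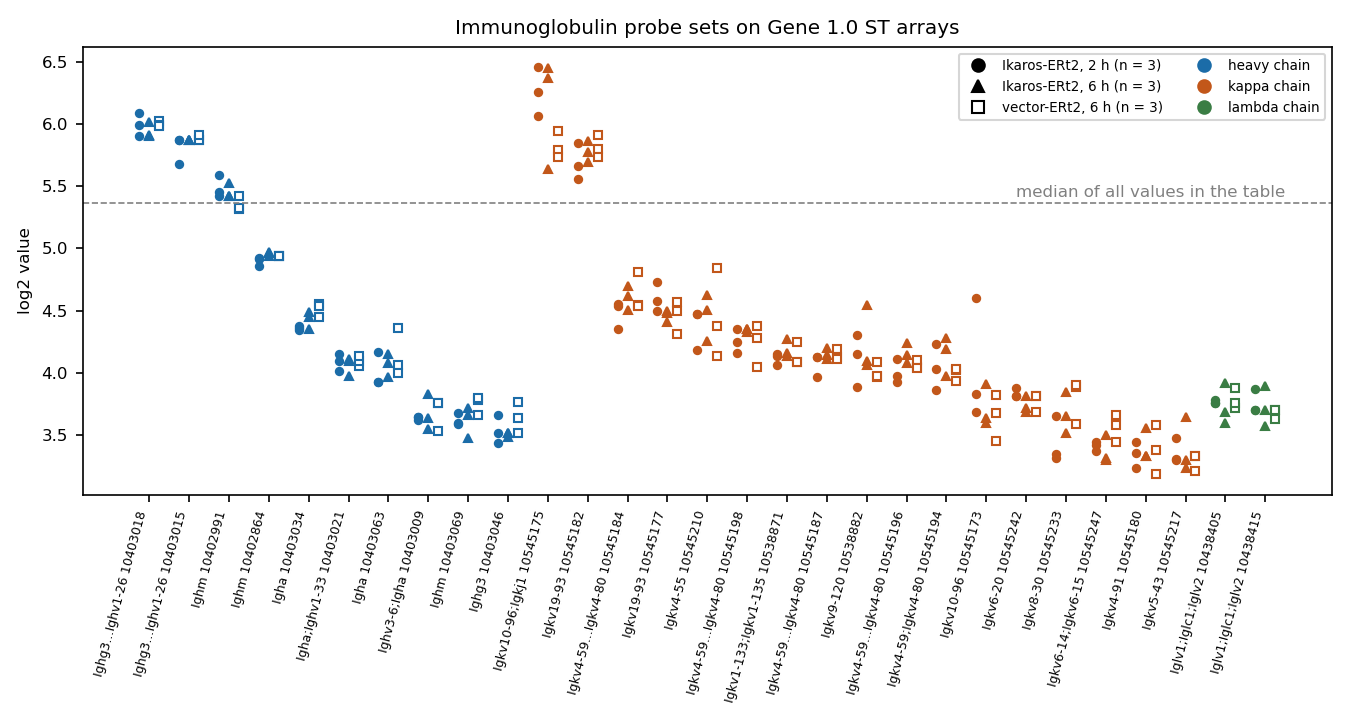
Log2 values of the 29 immunoglobulin probe sets on Gene 1.0 ST arrays, 3 per group, drawn as circles (Ikaros-ERt2, 2 h), triangles (Ikaros-ERt2, 6 h) and open squares (vector-ERt2, 6 h), ordered by chain and mean. The dashed line is the median of the whole table, 5.37, and 5 probe sets have their mean above it.

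The 2 h comparison sets Ikaros-ERt2 cells exposed for 2 h against vector-ERt2 cells exposed for 6 h, so the line and the length of exposure cannot be told apart in it. Its largest difference was that of a probe set annotated to Igkv10-96, a kappa V segment, and Igkj1, a kappa J segment. This probe set, 10545175, read 6.46, 6.26 and 6.07 in Ikaros-ERt2 cells at 2 h and 5.95, 5.80 and 5.74 in vector-ERt2 cells. The arrays did not overlap, but the log2 difference of 0.44 ± 0.20 was not called (limma adjusted p = 0.485), and its 95% interval was -0.03 to 0.90. Of the heavy chain probe sets, 2 annotated to Ighg3, Igha and the V segments Ighv1-33 and Ighv1-26 differed by -0.08 and -0.01. The Ighm probe set 10402991 read 5.59, 5.45 and 5.42 at 2 h and 5.42, 5.32 and 5.33 in vector-ERt2 cells (log2 difference 0.13, interval -0.03 to 0.29).

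In all, 0 of 6 tested members were called by limma at 2 h and 0 had an unadjusted p under 0.05, where 0.417% of all 21334 probe sets tested were called. Groups did not overlap for 3 of the 29 members, against 12.7% of all probe sets. Beside the Igkv10-96 and Igkj1 probe set these were Ighm on 10402864, with 4.92, 4.86 and 4.91 at 2 h and 4.94 in all vector-ERt2 arrays, and Igha on 10403034, with 4.36, 4.38 and 4.35 at 2 h and 4.55, 4.45 and 4.53 in vector-ERt2 cells. Over all 29, differences ran from -0.35 for Igkv8-30 to 0.44. Medians were -0.06 for heavy, -0.02 for kappa and 0.03 for lambda probe sets, beside -0.01 for the whole table.

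The 6 h comparison, with equal exposure in the 2 lines, also held no called member. The Igkv10-96 and Igkj1 probe set read 6.45, 6.37 and 5.64 in Ikaros-ERt2 cells at 6 h, so that the third array fell below all vector-ERt2 arrays (log2 difference 0.33 ± 0.20, interval -0.13 to 0.79, limma adjusted p = 0.587). For Ighm on 10402991 the 6 h arrays were 5.42, 5.43 and 5.53 (log2 difference 0.10, interval -0.06 to 0.26). Igkv19-93 on 10545182 read 5.69, 5.87 and 5.78 at 6 h and 5.92, 5.80 and 5.74 in vector-ERt2 cells, and the intervals of its difference were -0.25 to 0.17 at 6 h and -0.34 to 0.08 at 2 h.

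By limma, 0 of 6 tested members were called at 6 h, 0 at an unadjusted p under 0.05, where 1.84% of all tested probe sets were called, and the groups did not overlap for 0 of 29 members, against 13.6% of the table. Medians were -0.04 for heavy, 0.03 for kappa and -0.0033 for lambda probe sets, beside -0.02 for the table. Both comparisons use the same vector-ERt2 arrays. Intervals of the tested members reached at most 0.90 at 2 h and 0.79 at 6 h, and the lowest bounds were -0.34 and -0.25.

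**Figure D4:**
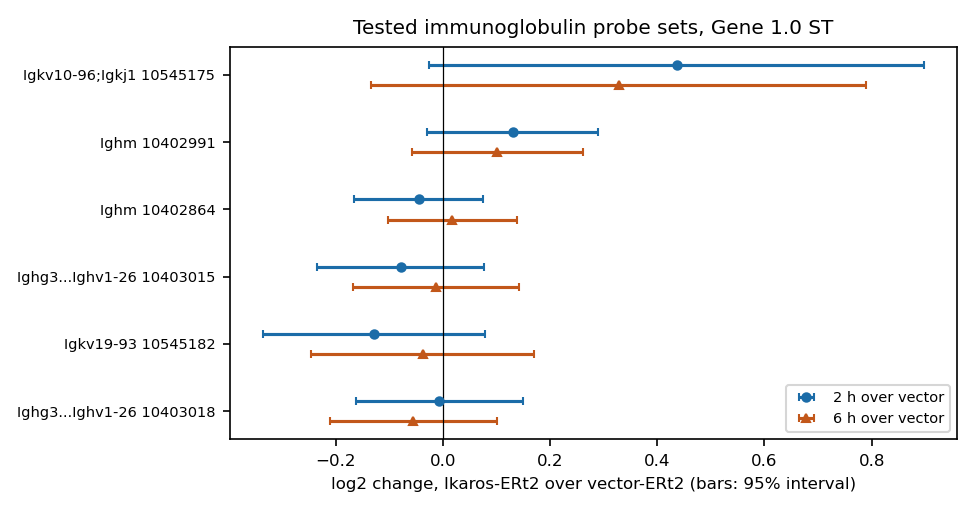
Log2 change of the 6 tested immunoglobulin probe sets in Ikaros-ERt2 cells exposed to 4-hydroxytamoxifen for 2 h (circles) or 6 h (triangles), each over the same vector-ERt2 cells exposed for 6 h, with 95% intervals of the limma fit (n = 3 arrays per group). Every interval includes 0, and the widest are those of the Igkv10-96 and Igkj1 probe set.

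Between the times, limma called 0 of 6 tested members at 6 h over 2 h and 0 at an unadjusted p under 0.05, beside 0.00937% of all tested probe sets. The groups stood apart for 1 of the 29 members, against 10.3% of the table: Ighm on 10402864 read 4.97, 4.94 and 4.96 at 6 h and 4.92, 4.86 and 4.91 at 2 h (log2 difference 0.06, adjusted p = 0.738). The lambda probe sets, both annotated to Iglv1, Iglc1 and Iglv2, had group means between 3.67 and 3.78. The 4 probe sets that hold Igkc lay between 3.92 and 4.81 in all 9 arrays.

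Partner genes on the same arrays did differ between the lines at 6 h. Of 22 tested, 6 were called lower and 1 higher, beside 1.84% of all tested probe sets called either way. The surrogate light chain genes Igll1, Vpreb1 and Vpreb2 were lower by 1.07, 1.17 and 0.79 on the log2 scale, and Vpreb3 by 0.33. The adaptor gene Blnk was lower by 0.94 and the transcription factor gene Irf4 by 0.69. Foxo1, another transcription factor gene, was higher by 0.85. At 2 h 0 of 22 were called by limma, and at 6 h over 2 h within the Ikaros-ERt2 line also 0 of 22. Jchain, Rag1 and Rag2 stood below the filter on these arrays, at means of 3.92, 4.18 and 3.54 at 6 h and 3.80, 4.24 and 3.59 in vector-ERt2 cells.

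The prefix match Ighmbp2 was not called in any comparison (limma). On 430 2.0 arrays its probe set 1421016_at read 6.42 and 5.71 in Ikaros cells and 5.32 and 5.65 in 159A cells (adjusted p = 0.499), and on Gene 1.0 ST arrays the Ikaros-ERt2 line averaged 6.64 at 2 h and 6.68 at 6 h, and the vector line 6.71.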

How the data were processed

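The authors deposited 1 log2 value per probe set and array. Per the submitters' processing notes, GCRMA, RMA, affy and limma were used, with versions, settings and array type not given in the sources used here. Per the labels' protocols, RNA was amplified with a two-cycle or a whole-transcript kit. Gene symbols came from the platform annotation. All 27 and 30 symbols that met the rule were found in the RefSeq gene table (GRCm38.p6), and 0 had changed.

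The 4 arrays of the 430 2.0 type and the 9 of the Gene 1.0 ST type were fitted separately, 1 row per probe set, by lmFit and eBayes of limma (version 3.58.1, under R 4.3.3), with two-sided tests. The lowest 40% of probe sets by mean were left out, which left 27061 and 21334, and p-values were adjusted over these by Benjamini-Hochberg, with a threshold of 0.05. Where a group's arrays or mean lay within 1 log2 unit of the lowest value, its values were raised to that limit, and the fold is given as "at least". The fit was tested on simulated arrays with independent normal noise for each value. These hold no cut-off at the floor and no effect shared between arrays, so they say nothing on calls that depend on either.

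The samples are labelled biological replicates, but no label states separate cultures. The p-values therefore cover only the spread among these arrays, whose small number limits precision. Members, gene lists and alternatives were chosen with earlier results of these data known. Named were called members, probe sets of constant regions (in groups where dim), the brightest ones and, where none was called, those with the smallest p per chain. Other members were named after their values were seen. Alternatives were other filters, quantile normalization, centring, eBayes with a trend, a block for replicate numbers, annotated probe sets alone, a fit of the compared groups alone and leaving out each array.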

Additional observations from a re-analysis of the deposited data

How the results depend on the processing

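The 48 h calls depend on the settings, and 2 arrays a group limit them. Immunoglobulin calls at 48 h (3) numbered 5 after centring each array on its median or with annotated probe sets alone, and 0 with any array left out, which leaves a group of 1 array, assumed to vary like the other group. Replicate numbers were not taken as pairs, since no label states a shared batch. On 430 2.0 arrays, however, deviations from group means correlated at r of 0.569 between arrays of equal number and -0.569 between the others. With 2 arrays a group these are 1 value with opposite signs. On Gene 1.0 ST arrays of equal number r lay between -0.20 and 0.12. The main 48 h p-values take no account of an effect shared by number. Under the replicate block 0 immunoglobulin probe sets and 0 of all probe sets were called by limma (8 and 8008 at an unadjusted p under 0.05), with adjusted p of 0.083, 0.083 and 0.0982 for the 3. Calls at 48 h over all probe sets (1483) numbered 77 with no filter, 2701 with the lowest 60% left out, 2291 after centring and 0 with any array left out (4418 to 7146 unadjusted).

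Calls gained at 48 h were Igkv19-93 under quantile normalization, centring and annotated probe sets alone (adjusted p 0.0268, 0.0331 and 0.0399), 1427660_x_at under centring and annotated probe sets alone (0.0392 and 0.0452), and Ighv14-2 with the lowest 60% left out (0.0435). The heavy median was -0.000305 under quantile normalization and -0.016 after centring. The kappa median was -0.003856 after centring and 0 to 0.018 with an array left out. Centring adds 1 constant to every change (-0.016 at 48 h, 0.035 at 2 h), so the medians after centring restate that constant.

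On Gene 1.0 ST arrays 0 immunoglobulin probe sets were called by limma under every alternative run. Over all probe sets, 2 h calls (89) numbered 42 with no filter, 142 with the lowest 60% left out, 45 after centring, 48 under the replicate block, 201 with annotated probe sets alone, 38 with the 2 groups alone, and 9 to 64 with an array left out. At 6 h (392) they numbered 696 with annotated probe sets alone, 161 with the 2 groups alone, and 125 to 335 with an array left out. At 6 h over 2 h (2, of which 1 higher) they numbered 0 with no filter, after centring, under the replicate block and with the 2 groups alone, 25 with the lowest 60% left out, 8 under quantile normalization (2 higher), 113 with annotated probe sets alone, and 0 to 2 with an array left out. The kappa median at 2 h was 0.0021 under quantile normalization, 0.012 after centring and -0.048 to 0.029 with an array left out, and at 6 h over 2 h 0.026 to 0.084. The sign of Igkv19-93 (10545182) at 6 h turned, with values of -0.081 to 0.011 (0.0058 without the first 6 h array), as did that of 10545175 at 6 h over 2 h, with -0.26 to 0.15. The cause was not tested.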
